A study of Mus musculus with 12 samples.

Results

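The genes described here are the water and sodium channel genes of the collecting duct principal cell, 9 members chosen by name from 55450 genes of the deposited table: Aqp2, Aqp3, Aqp4, Avpr2, Scnn1a, Scnn1b, Scnn1g, Fxyd4 and Hsd11b2. All 9 were among the 15708 genes that passed the filter on low counts. Messenger RNA was sequenced from dissected outer kidney cortex of mice 12 weeks old, 3 mice in each of 4 groups: Tg26 mice given INT-747, wild-type (WT) mice given INT-747, Tg26 mice given nicotinamide riboside (NR) and WT mice given NR. Tg26 mice carry a defective HIV provirus driven by the viral promoter, not by a promoter of a kidney cell type, and are a model of HIV-associated nephropathy. INT-747, also called obeticholic acid, activates the bile acid receptor FXR, and NR is a precursor of NAD. Every mouse received one of the agents, and no untreated group was analysed here, so a treatment difference is INT-747 set against NR. Total counts ran from 22286343 to 28952177 per library. Strain, sex, dose, route and duration could not be read from the labels.

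Principal cells line the connecting tubule and collecting duct beside the acid-base transporting intercalated cells. Vasopressin binds the V2 receptor on their basolateral side and acts through cAMP to move the water channel AQP2 into the apical membrane and to raise Aqp2 transcription, while AQP3 and AQP4 let the water leave on the basolateral side. Aldosterone acts on the mineralocorticoid receptor of the same cells to increase sodium entry through the epithelial sodium channel ENaC, which is built from the products of Scnn1a, Scnn1b and Scnn1g, and the enzyme encoded by Hsd11b2 inactivates glucocorticoids that would otherwise occupy that receptor. FXYD4, also called CHIF, is a small membrane protein that adjusts the affinity of the sodium pump in the collecting duct. In whole cortex, fewer principal cells and less RNA per principal cell cannot be told apart.

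Levels between genes are comparable only per length, here as CPM (counts scaled to a common library size) per kilobase of merged exons, averaged over the 12 libraries. On this scale Hsd11b2 stood highest at 52.0, with Aqp2 at 47.2 and Aqp3 at 47.0 close below it. The pore subunits of ENaC were unequal, with Scnn1a at 34.1 against 13.3 for Scnn1b and 12.3 for Scnn1g. The remaining members were far lower, with Fxyd4 at 2.702, Avpr2 at 2.47 and Aqp4 at 2.12 CPM per kilobase. Among all tested genes on this scale, Hsd11b2, Aqp2 and Aqp3 lay at percentiles of 93.8 to 94.3 and Aqp4 at a percentile of 42.3. Of 4 genes listed for the inner medulla, the urea transporter Slc14a2 had at most 5 counts and the osmolyte transporter Slc6a12 at most 6 counts in any library. The other two, the inositol transporter Slc5a3 and the aldose reductase gene Akr1b3, were well detected, with up to 3133 and 3989 counts, and the 4 genes summed to 138 to 258 CPM. The 5 urothelial genes summed to between 0.505 and 1.93 CPM.

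One library stood apart before any comparison. Tg26 replicate 3 under NR had 5816 counts of Xist and 0 counts of 4 Y-linked genes, the pattern of a female mouse, where the other 11 libraries had 1 to 8 counts of Xist. It was the highest of the 12 libraries for 8 of the 9 members, and those 8 averaged 0.72 log2 units above their own means over all libraries. The next highest library by this measure, WT replicate 2 under NR, was at 0.23. Markers of several other cell types were also high in that library: the summed intercalated cell markers reached 618 CPM against 273 to 397 CPM in the others, the summed distal convoluted and connecting tubule markers 4084 CPM against 1666 to 2878 CPM, the thick ascending limb markers 7538 CPM against 3386 to 5997 CPM, and the podocyte markers of the glomerulus 563 CPM against 283 to 354 CPM. The 19 other genes listed for principal cells summed to 2553 CPM there and to between 1880 and 2354 CPM elsewhere. Sex and the remaining differences of this mouse cannot be told apart, so results that rest on it are given with and without it. A term for sex marks this library alone, so it is not a check separate from leaving the library out.

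**Figure D1:**
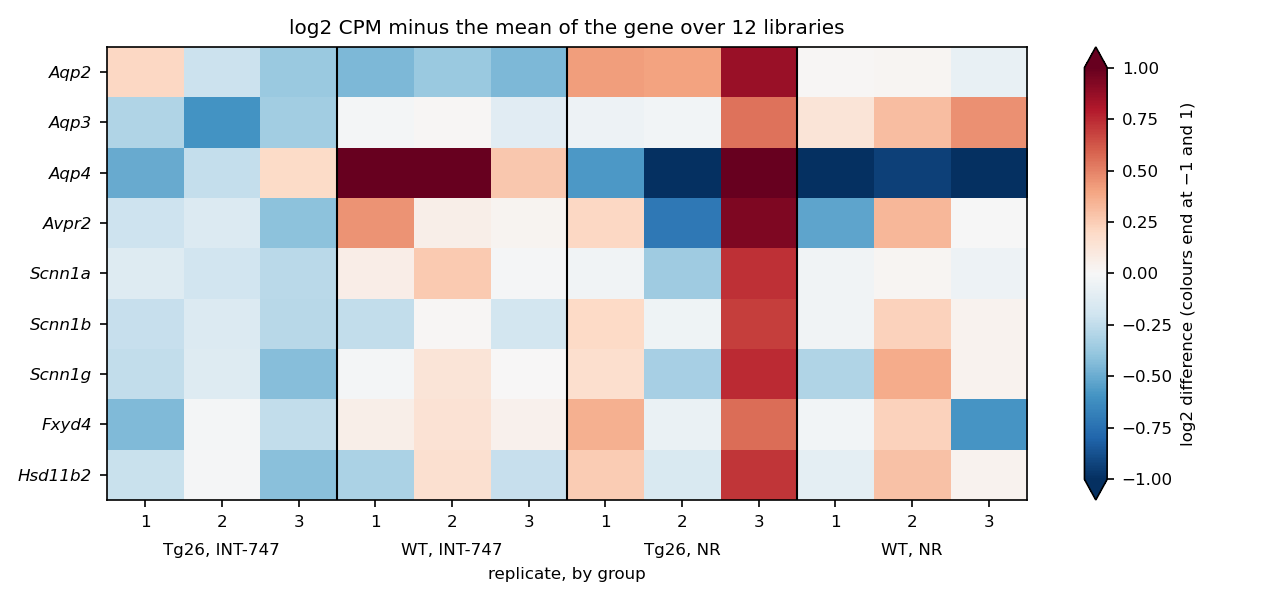
Difference of each member's log2 CPM from its mean over the 12 libraries, with genes in rows and libraries in columns by group. Tg26 replicate 3 under NR is red in every row, and the 3 Tg26 libraries under INT-747 are pale or blue in most rows, while Aqp4 follows its own pattern, with red in all 3 WT libraries under INT-747.

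Aqp2, the apical water channel (ENSMUSG00000023013.5, chromosome 15, 99579055 to 99584547, plus strand), showed 2 separate contrasts in level. Under INT-747 it had 74.5, 55.6 and 49.9 CPM in Tg26 mice against 47.3, 49.7 and 47.3 CPM in WT mice. Under NR it had 85.9, 85.2 and 117.4 CPM in Tg26 mice against 64.8, 65.2 and 61.3 CPM in WT mice. The WT groups were tight, with SDs of 1.39 CPM under INT-747 and 2.10 CPM under NR, whereas the Tg26 groups spread over 12.9 and 18.4 CPM. Within each treatment every Tg26 library lay above every WT library, although under INT-747 the lowest Tg26 library and the highest WT library were almost equal.

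Aqp3, the basolateral channel for water and glycerol (ENSMUSG00000028435.8, chromosome 4, 41092722 to 41098183, minus strand), lay the other way round between the genotypes. Under INT-747 it had 68.0, 55.5 and 66.1 CPM in Tg26 mice against 82.7, 84.5 and 77.7 CPM in WT mice, with no overlap. Under NR it had 81.3, 82.6 and 122.4 CPM in Tg26 mice against 91.9, 104.2 and 115.4 CPM in WT mice. There the Tg26 range enclosed the WT range, because replicate 3 alone lay above all 3 WT libraries. Both channels were lower under INT-747 than under NR in either genotype, by group means of 60.0 against 96.1 CPM for Aqp2 and 63.2 against 95.4 CPM for Aqp3 in Tg26 mice, and of 48.1 against 63.8 CPM and 81.7 against 103.8 CPM in WT mice.

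The opposite order of Aqp2 and Aqp3 between genotypes was clearest in the ratio of their counts within a library, a quantity chosen after their values were seen and therefore described without a test. It was 1.09, 1.002 and 0.755 in Tg26 mice against 0.571, 0.588 and 0.609 in WT mice under INT-747. Under NR it was 1.06, 1.03 and 0.958 in Tg26 mice against 0.705, 0.625 and 0.531 in WT mice. All 6 Tg26 libraries lay above all 6 WT libraries, and the library with the female pattern, at 0.958, lay among the others of its genotype. How many other gene pairs separate the genotypes in this way was not counted. The group means of the ratio were 0.951 ± 0.176 under INT-747 and 1.02 ± 0.0512 under NR in Tg26 mice (SD, n = 3), and 0.589 ± 0.0188 under INT-747 and 0.621 ± 0.0869 under NR in WT mice.

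**Figure D2:**
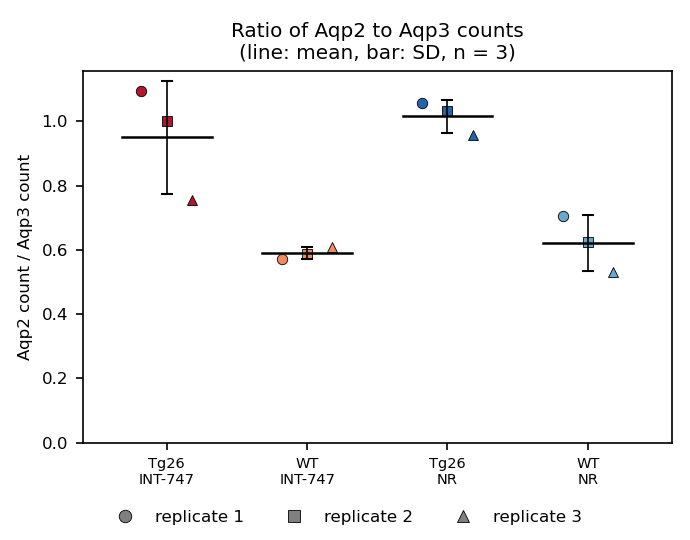
Ratio of Aqp2 to Aqp3 counts in each library by group, with the mean as a line and the SD as a bar (n = 3). The 6 Tg26 libraries lie between 0.755 and 1.09 and the 6 WT libraries between 0.531 and 0.705.

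The promoters of these channels are shown because the 2 genes were lower together under INT-747 and differed in order between genotypes. The sequences are the 250 bases before the RefSeq start of each gene on build GRCm38.p6, at chr15:99578806-99579055 on the plus strand for Aqp2 and chr4:41098184-41098433 on the minus strand for Aqp3, written 5′ to 3′ on the strand of the gene. Capitals mark matches, on either strand, to the cAMP response core TGACG, the GATA motif GATAA, the hormone response core AGAACA and the E-box CACGTG, none of which overlap here.
Aqp2: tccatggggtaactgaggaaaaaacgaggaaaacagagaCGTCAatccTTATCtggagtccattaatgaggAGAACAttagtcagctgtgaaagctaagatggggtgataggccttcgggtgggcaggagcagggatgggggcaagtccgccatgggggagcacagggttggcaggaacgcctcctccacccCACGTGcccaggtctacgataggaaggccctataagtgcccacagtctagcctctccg
Aqp3: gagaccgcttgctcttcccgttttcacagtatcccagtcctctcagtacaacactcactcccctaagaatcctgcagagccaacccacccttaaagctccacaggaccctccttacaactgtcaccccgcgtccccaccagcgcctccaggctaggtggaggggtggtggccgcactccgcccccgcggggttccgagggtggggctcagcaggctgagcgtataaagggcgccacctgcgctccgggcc
In the Aqp2 window the cAMP core begins 211 bases before the start and the GATA motif 202 bases before it, both on the minus strand, followed by the hormone core at 179 bases and the E-box at 58 bases on the plus strand. The full cAMP response element TGACGTCA is not among these letters. None of the motifs was found in the Aqp3 window. In the same window of 27025 mouse promoters, TGACG was present in 17.9%, TGACGTCA in 1.62%, GATAA in 23%, AGAACA in 16.2% and CACGTG in 6.05%. A match is a match of letters only. Of the 9 members, 6 had a single entry in the promoter table. Besides Aqp2 and Aqp3 these were Avpr2, with 1 match to GATAA and 2 to AGAACA, and Scnn1b, Scnn1g and Fxyd4, with no match. The part of these motifs in the levels of the genes was not tested.

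Aqp4, the second basolateral water channel (ENSMUSG00000024411.10, chromosome 18, 15389496 to 15410982, minus strand), was the most variable member, with a 22.6-fold range over the libraries. Under INT-747 it had 5.73, 6.91 and 9.32 CPM in Tg26 mice against 51.2, 28.4 and 9.83 CPM in WT mice. Under NR it had 5.46, 2.26 and 28.8 CPM in Tg26 mice against 2.62, 4.24 and 3.998 CPM in WT mice. The high libraries were thus WT replicates 1 and 2 under INT-747 and Tg26 replicate 3 under NR, and the other 9 stayed below 10 CPM. An antisense gene overlaps Aqp4, and the strand setting of the counting is not stated in the labels.

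Avpr2, the vasopressin V2 receptor gene on the X chromosome (73892102 to 73895502, plus strand), was low and scattered. It had 5.89, 6.19 and 5.10 CPM in Tg26 mice against 9.33, 7.11 and 6.93 CPM in the WT mice on INT-747, and the groups did not overlap. Under NR the values were 7.86, 4.11 and 13.1 CPM in Tg26 mice against 4.70, 8.61 and 6.78 CPM in WT mice. The Tg26 mice under NR held both the lowest and the highest library of all 12. Arhgap4 and L1cam overlap Avpr2 on the opposite strand, so part of its counts could be theirs if counting ignored strand.

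The ENaC subunit genes differed in spread more than in mean. Scnn1a, which encodes the alpha subunit that the channel needs to conduct (chromosome 6, 125320659 to 125344943), had 126.6, 120.8 and 114.9 CPM in Tg26 mice against 144.6, 165.8 and 136.7 CPM in WT mice under INT-747. With NR the same gene had 134.9, 108.0 and 229.0 CPM in Tg26 mice against 135.1, 139.9 and 133.3 CPM in WT mice. The groups did not overlap under INT-747, and under NR the Tg26 libraries lay on both sides of the WT libraries.

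Scnn1b and Scnn1g, which encode the beta and gamma subunits, lie 96.6 kb apart on chromosome 7 with 1 annotated gene between them (Scnn1g at 121734479 to 121768475 and Scnn1b at 121865038 to 121918514, both on the plus strand). Scnn1b had 29.3, 31.3 and 28.3 CPM in Tg26 mice against 28.9, 34.7 and 30.2 CPM in WT mice under INT-747. With NR Scnn1b had 39.6, 33.3 and 55.5 CPM in Tg26 mice against 33.6, 40.4 and 35.2 CPM in WT mice. Scnn1b therefore overlapped between the genotypes under both treatments, while all 3 Tg26 libraries under INT-747 lay below all 3 under NR. Scnn1g had 30.1, 32.7 and 26.6 CPM in Tg26 mice against 35.2, 39.0 and 35.9 CPM in WT mice under INT-747. On NR its values were 40.2, 28.3 and 60.0 CPM in Tg26 mice against 29.0, 46.4 and 36.7 CPM in WT mice. The count ratio of Scnn1b to Scnn1g ranged from 0.821 to 1.177 over the libraries. Cog7 overlaps Scnn1b on the opposite strand.

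Hsd11b2, the glucocorticoid-inactivating enzyme (chromosome 8, 105518755 to 105523988), had 80.2, 92.7 and 70.0 CPM in Tg26 mice against 75.1, 104.6 and 79.8 CPM in WT mice under INT-747. On NR it had 111.3, 84.2 and 153.3 CPM in Tg26 mice against 87.5, 114.5 and 95.9 CPM in WT mice. Its genotypes overlapped under both treatments. Fxyd4, the sodium pump regulator (chromosome 6, 117933559 to 117937692), had 3.79, 5.11 and 4.36 CPM in Tg26 mice against 5.38, 5.73 and 5.33 CPM in WT mice under INT-747, a narrow gap without overlap. Under NR Fxyd4 had 6.63, 4.93 and 7.66 CPM in Tg26 mice against 5.06, 6.07 and 3.41 CPM in WT mice, which overlapped. For 7 of the 9 members the highest group mean was that of Tg26 mice under NR, the group that holds the library with the female pattern. The exceptions were Aqp3, highest in WT mice under NR, and Aqp4, highest in WT mice under INT-747. Without the library of female pattern, Avpr2, Scnn1a, Scnn1g and Hsd11b2 had a lower fitted level in Tg26 than in WT mice under NR.

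**Figure D3:**
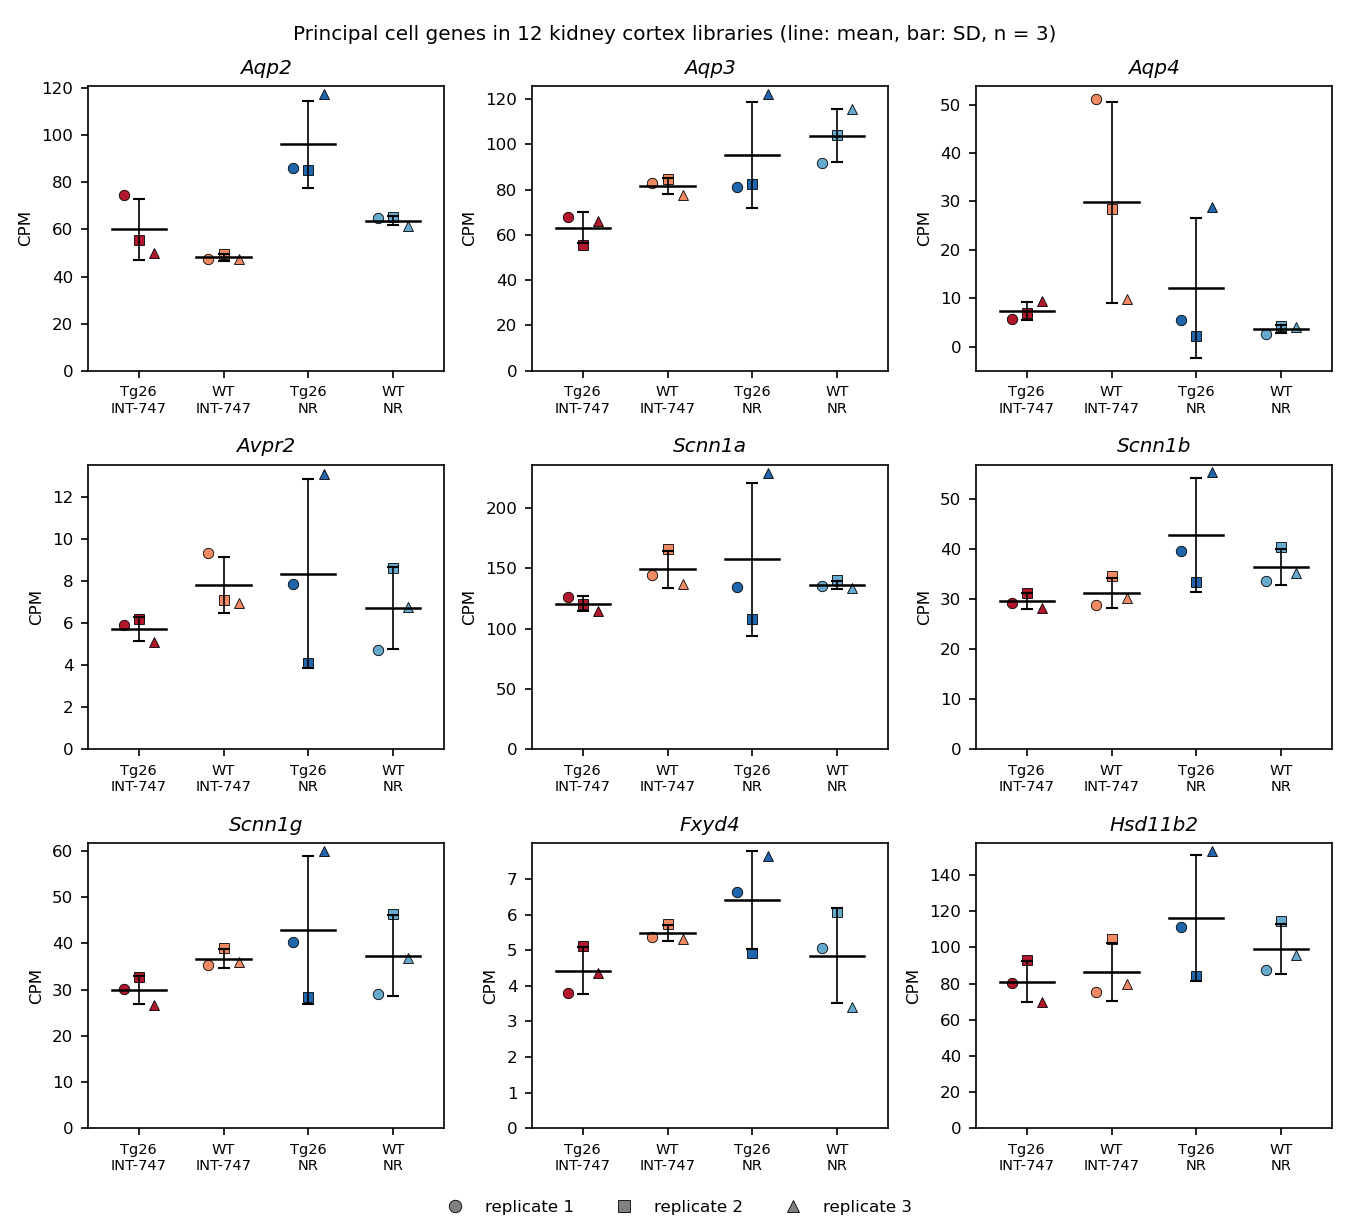
Expression of each member in CPM by group, 1 point per library, with the mean as a line and the SD as a bar (n = 3). In most panels replicate 3 of the Tg26 mice under NR, a triangle, is the topmost point, and the SD bar of Aqp4 in that group reaches below 0 because of it.

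The first comparison asked how diseased and healthy kidneys differed while both received INT-747. Of the 9 members, 8 had a lower fitted level in Tg26 mice and Aqp2 a higher one, with a median log2 fold change of −0.30 over the members and 0.01 over all genes. None of the 9 passed an adjusted p of 0.05 in the edgeR quasi-likelihood test, where 0.267% of all genes did, and DESeq2 and limma-voom called 0 as well. At an unadjusted p under 0.05 there were 2, Aqp3 and Aqp4, against 15.3% of all genes. Groups did not overlap for 6 members lower in Tg26 mice (Aqp3, Aqp4, Avpr2, Scnn1a, Scnn1g and Fxyd4), against 13.5% of all genes in that direction, and for Aqp2 higher, against 12.5%. The log2 fold changes were −0.37 for Aqp3 (SE 0.15, edgeR adjusted p = 0.283), −2.02 for Aqp4 (SE 0.86, edgeR adjusted p = 0.307) and 0.32 for Aqp2 (SE 0.15, edgeR adjusted p = 0.342). Those of Avpr2, Scnn1a, Scnn1g and Fxyd4 lay between −0.44 and −0.30. Scnn1b at −0.08 and Hsd11b2 at −0.10 were nearest to 0. Some marker lists moved with genotype here. The 8 distal convoluted and connecting tubule genes summed to 1907 to 2101 CPM in Tg26 mice against 2416 to 2878 CPM in WT mice, without overlap, whereas the sums of thick ascending limb genes (4355 to 4716 CPM in Tg26 mice against 4364 to 5997 CPM in WT mice) and of intercalated cell genes overlapped. All 8 tubular injury markers, such as Havcr1 and Lcn2, had a higher fitted level in Tg26 mice, with a median of 1.24 and 0 called by edgeR, and sums of 371 to 871 CPM in Tg26 mice against 375 to 477 CPM in WT mice. The part of these lists in the members' values was not tested.

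The clock score moved with genotype in this comparison. It is the mean log2 CPM of 7 genes of one circadian phase, such as Dbp and Per2, less the same mean for 4 genes in antiphase, among them Arntl. Under INT-747 it was 3.36, 2.78 and 2.63 in Tg26 mice against 0.66, −0.34 and 0.11 in WT mice, so that time of day and genotype cannot be told apart there. With the score as a covariate, 6 of the 9 members had a fitted level higher in Tg26 mice instead of 1, and the median over the members was 0.21. The direction of the ENaC genes, Avpr2 and Hsd11b2 between genotypes under INT-747 thus turned with that term. Aqp2 at 0.42, Aqp3 at −0.07, Aqp4 at −0.76 and Fxyd4 at −0.22 kept their sign with it, against 0.32, −0.37, −2.02 and −0.31 without it. The differences of Aqp3 and Aqp4 were thus much smaller in that fit. The coefficients of the score behind this were −0.11 log2 units per unit for Aqp3 and −0.49 for Aqp4. They were −0.06 and −0.13 with a sex term, which marks the library with the female pattern alone. With a sex term beside the clock score, 5 members were lower and 4 higher in Tg26 mice, with a median of −0.02. Avpr2 and Scnn1a kept their negative sign in that fit.

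Under NR the same genotype comparison gave 8 members with a higher fitted level in Tg26 mice and Aqp3 with a lower one, with a median of 0.23 over the members and −0.01 over all genes. None was called by edgeR, as for 0.00% of all genes, although 3244 genes, or 20.7%, had an unadjusted p under 0.05. Aqp2 was the 1 member with such a p, at a log2 fold change of 0.59 (SE 0.15, edgeR adjusted p = 0.125), and it was the 1 member called by DESeq2, which called 6.16% of all genes, with limma-voom calling 0. It was also the 1 member whose groups did not overlap, higher in Tg26 mice, as for 10.2% of all genes. Aqp4 had a log2 fold change of 1.74 with an SE of 0.89 (edgeR adjusted p = 0.301) and Fxyd4 one of 0.41 (SE 0.22, edgeR adjusted p = 0.331). Avpr2, Scnn1a, Scnn1b, Scnn1g and Hsd11b2 lay between 0.20 and 0.32. All 8 tubular injury markers had a higher fitted level in Tg26 mice, with a median of 2.64, and summed to 710 to 2003 CPM in Tg26 mice against 307 to 389 CPM in WT mice. All 5 podocyte markers were higher too, with a median of 0.34. They summed to 319, 354 and 563 CPM in Tg26 mice, the last in the library with the female pattern, against 287 to 320 CPM in WT mice. None of these markers was called by edgeR, and their part in the members' values was not tested.

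Several of these values rested on the library with the female pattern. Without Tg26 replicate 3 under NR, Avpr2 was at −0.13, Scnn1a at −0.14, Scnn1g at −0.10 and Hsd11b2 at −0.0016, so these turned direction, while Scnn1b was at 0.02, Aqp4 at 0.14 and Fxyd4 at 0.28. Aqp2 was at 0.44 (SE 0.13, edgeR adjusted p = 0.0809) and Aqp3 at −0.32 (SE 0.11, edgeR adjusted p = 0.131) without it. Without Tg26 replicate 2 under NR, Aqp2 was called at a log2 fold change of 0.69 (edgeR adjusted p = 0.0399), where 785 of 16033 genes were called.

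Averaged over both treatments, Aqp2 was at a log2 fold change of 0.46 between Tg26 and WT mice (SE 0.11, edgeR adjusted p = 0.0813) and Aqp3 at −0.25 (SE 0.11, edgeR adjusted p = 0.229), and both had an unadjusted p under 0.05, as did 20.0% of all genes. Neither was called, nor were the other 7 members, against 0.446% of all genes. DESeq2 called Aqp2, as it did 7.61% of all genes, and limma-voom called 0 members. Without Tg26 replicate 3 under NR both genes were called, Aqp2 at 0.38 (edgeR adjusted p = 0.0312) and Aqp3 at −0.35 (edgeR adjusted p = 0.0272). In that fit 1223 of all 16033 genes tested were called. A term for sex, which marks that library alone, gave nearly the same fit, with Aqp2 called at 0.37 (edgeR adjusted p = 0.0324) and Aqp3 at −0.36 (edgeR adjusted p = 0.0248). There 1232 of 15708 genes were called. With the sex term and the clock score together neither of the 2 was called (edgeR adjusted p = 0.496 and 0.527).

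The treatment comparison in Tg26 mice shares its NR libraries with the genotype comparison above. All 9 members had a lower fitted level in Tg26 mice under INT-747 than in those under NR, and Aqp2 fell to 60.0 ± 12.9 CPM under INT-747, against 96.1 ± 18.4 CPM under NR (SD, n = 3). Its log2 fold change was −0.68 (SE 0.15, edgeR adjusted p = 0.0362), and it was the 1 member called, where 4.38% of all genes were called and 1.48% were called lower. At an unadjusted p under 0.05 there were 5 members, against 27.3% of all genes. The median over the members was −0.54, against −0.04 over all genes. For 3 channel or subunit genes there was no overlap between the groups, namely Aqp2, Aqp3 and Scnn1b, against 12.5% of all genes not overlapping in that direction. Aqp3 was at −0.59 (SE 0.15, edgeR adjusted p = 0.0502) and Scnn1b at −0.53 (SE 0.16, edgeR adjusted p = 0.0701), just outside the threshold. DESeq2 called these 3, against 13.8% of all genes, and limma-voom called Aqp2 alone. Hsd11b2 at −0.52, Fxyd4 at −0.54 and Scnn1g at −0.52 had edgeR adjusted p-values of 0.140, 0.154 and 0.184, and those of Scnn1a at −0.38, Avpr2 at −0.54 and Aqp4 at −0.73 were larger. Other lists moved with this comparison as well. All 8 tubular injury markers had a lower fitted level under INT-747, with a median of −1.45 and sums of 371 to 871 CPM under INT-747 against 710 to 2003 CPM under NR. All 5 podocyte markers did so too, with a median of −0.60. They summed to 283 to 346 CPM under INT-747 against 319, 354 and 563 CPM under NR, the last in the library with the female pattern. None of these injury and podocyte markers was called by edgeR. Not every list fell. Of 8 proximal tubule genes 5 were higher under INT-747 and 3 lower, with a median of 0.25 and Slc5a12 called lower. Of 7 thick ascending limb genes 6 were lower, with a median of −0.15, and Cldn10 was called higher. Both tested inner medulla genes were higher, with a median of 0.32. The part of any of these lists in the members' values was not tested.

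The call of Aqp2 rested on the design of the fit and on single libraries. It was lost in the fit of only the 2 groups (−0.70, edgeR adjusted p = 0.157), with a term for sex (−0.51, edgeR adjusted p = 0.0742) and with the sex term and clock score together (−0.50, edgeR adjusted p = 0.0595). It was also lost on leaving out single libraries of the groups compared: Tg26 replicate 1 (−0.88, edgeR adjusted p = 0.0722) or replicate 3 (−0.58, edgeR adjusted p = 0.148) under INT-747, or Tg26 replicate 1 (−0.76, edgeR adjusted p = 0.0814) or replicate 3 (−0.54, edgeR adjusted p = 0.0690) under NR. The same held without WT replicate 1 (edgeR adjusted p = 0.0614) or replicate 2 (edgeR adjusted p = 0.0524) under INT-747 and without WT replicate 3 under NR (edgeR adjusted p = 0.0535), which enter through the shared estimate of spread. Without Tg26 replicate 2 under NR, 6 members were called: Aqp2, Aqp3, Scnn1a, Scnn1b, Scnn1g and Hsd11b2. In that fit 2320 of all 16033 genes tested were called. Without WT replicate 1 under NR there were 2, Aqp2 and Aqp3, where 750 of 16094 genes were called. The log2 fold change of Aqp2 kept its sign in all 23 alternatives, from −0.88 to −0.50. Without the library of female pattern the median over the members was −0.30, Scnn1a was at −0.03 and Avpr2 at −0.10, and Aqp4 turned to 0.87.

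In WT mice the treatments differed less for most members, and none was called by edgeR, DESeq2 or limma-voom, against 0.0127% of all genes by edgeR. An unadjusted p under 0.05 was found for 3, against 5.01% of all genes, namely Aqp2 at a log2 fold change of −0.41 (SE 0.15, edgeR adjusted p = 0.848), Aqp3 at −0.35 (SE 0.15, edgeR adjusted p = 0.951) and Aqp4 at 3.04 (SE 0.91, edgeR adjusted p = 0.780). These were also the 3 members without overlap, Aqp4 higher under INT-747, as for 6.65% of all genes, and Aqp2 and Aqp3 lower, as for 6.21%. The other 6 members lay between −0.22 and 0.22. All 7 thick ascending limb genes had a higher fitted level under INT-747 in WT mice, with a median of 0.51 and 0 called by edgeR. They summed to 4364 to 5997 CPM under INT-747 against 3480 to 3758 CPM under NR, without overlap. Of 8 proximal tubule genes 3 were higher and 5 lower, with a median of −0.11. The part of these lists in the members' values was not tested. Averaged over genotypes, Aqp2 was at −0.54 (SE 0.11, edgeR adjusted p = 0.0541), Aqp3 at −0.47 (SE 0.11, edgeR adjusted p = 0.0720) and Scnn1b at −0.37 (SE 0.11, edgeR adjusted p = 0.136). None was called by edgeR in that average, against 0.427% of all genes, with 4 members at an unadjusted p under 0.05, against 17.7% of all genes. DESeq2 called 3, Aqp2, Aqp3 and Scnn1b, against 4.94% of all genes, and limma-voom 0. When Tg26 replicate 3 under NR was left out, Aqp2 was called at −0.47 (edgeR adjusted p = 0.0386) and Aqp3 was at −0.37 (edgeR adjusted p = 0.0505). In that fit 118 of 16033 genes were called.

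**Figure D4:**
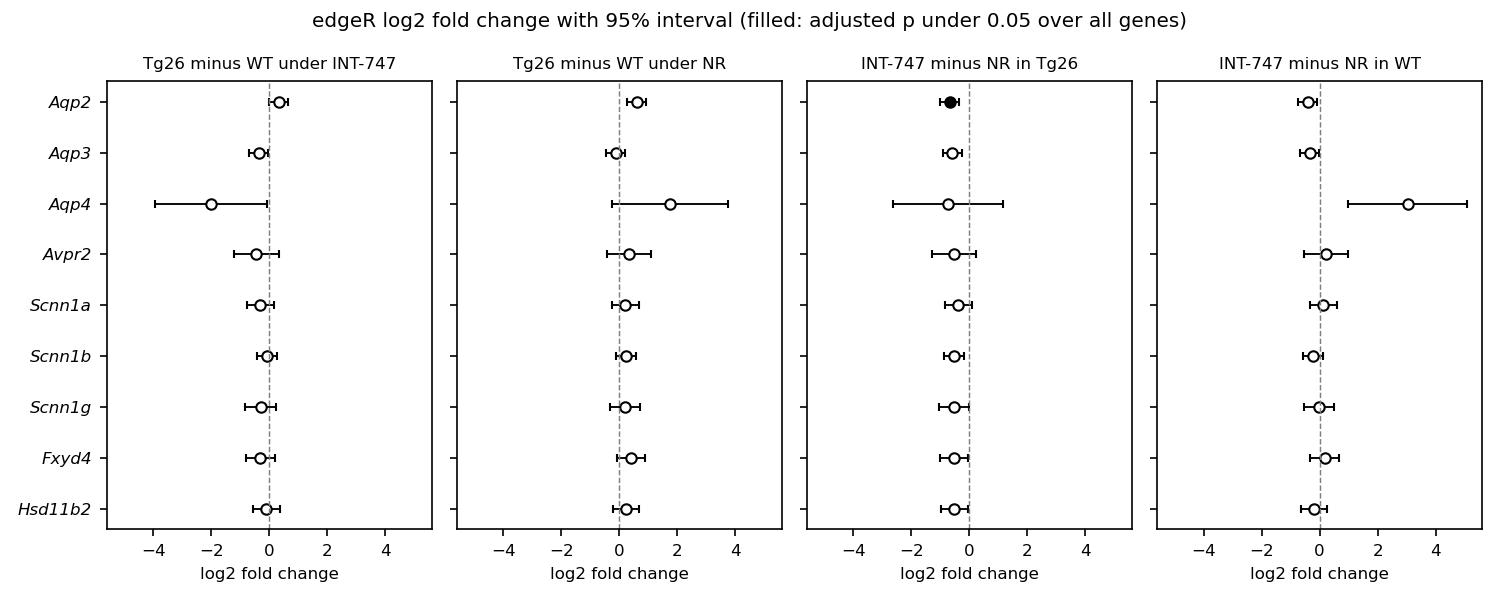
Log2 fold changes of the 9 members in the genotype and treatment comparisons, with 95% intervals from the edgeR fit. The 1 filled point is Aqp2 for INT-747 against NR in Tg26 mice, at −0.68, and the intervals of Aqp4 are the widest.

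Whether the treatment difference itself depended on genotype was asked with the interaction. All 9 members had a negative fitted value, as did 52.3% of all genes, meaning a lower INT-747 to NR ratio in Tg26 than in WT mice. None was called by edgeR, DESeq2 or limma-voom, against 0.00% of all genes by edgeR, and 2 had an unadjusted p under 0.05, against 15.5% of all genes. These were Aqp4 at −3.77 (SE 1.23, edgeR adjusted p = 0.271) and Fxyd4 at −0.72 (SE 0.32, edgeR adjusted p = 0.316). Aqp2 was at −0.27 and Aqp3 at −0.25, both smaller than their own treatment differences in Tg26 mice. Without Tg26 replicate 3 under NR the median over the members was −0.17 instead of −0.50, and Aqp4 was at −2.17.

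The change of each member with the clock score within groups was tested after the data had been seen, and no member passed the threshold. Under NR the score was 2.996, 3.75 and 0.47 in Tg26 mice against 3.50, 0.12 and −0.73 in WT mice, so that each group held both high and low libraries. All 9 members had a negative coefficient, which is a lower level at a higher score. It was −0.18 log2 units per unit of score for Scnn1g (SE 0.05, edgeR adjusted p = 0.0804), −0.11 for Aqp3 (SE 0.03, edgeR adjusted p = 0.124) and −0.24 for Avpr2 (SE 0.08, edgeR adjusted p = 0.145), and −0.04 for Aqp2 (SE 0.04, edgeR adjusted p = 0.704). By the same threshold 1.61% of all genes were called. The library with the female pattern had a low score, and with a sex term Scnn1g was at −0.13 (SE 0.05, edgeR adjusted p = 0.402), with 0.267% of all genes called. In that fit Aqp2 and Fxyd4 had positive coefficients of 0.03 and 0.02. The WT library with the highest score, replicate 1 under NR at 3.50, also had the highest WT ratio of Aqp2 to Aqp3 counts, 0.705. The part of the score in that ratio was not tested.

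**Figure D5:**
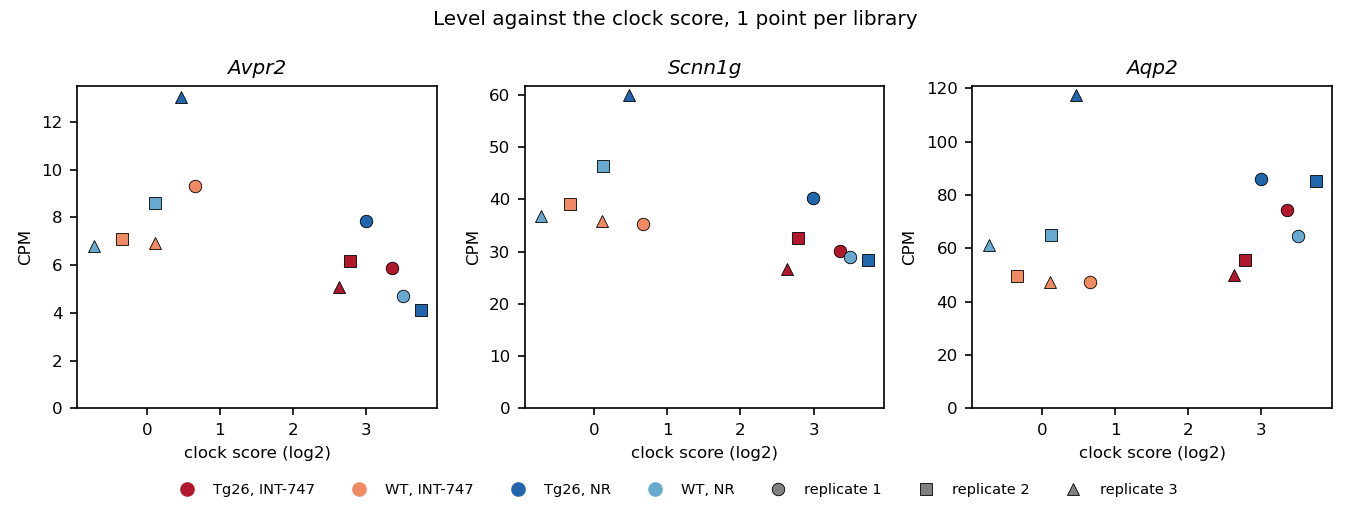
CPM of Avpr2, Scnn1g and Aqp2 against the clock score, a log2 difference between clock genes in antiphase, with 1 point per library. The libraries fall into scores under 1 and scores above 2, Avpr2 and Scnn1g are mostly lower at high scores, and Aqp2 shows no such order.

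Genes around the members were examined as lists, and whether a listed gene is restricted to a single cell type was not tested. Of 19 other principal cell genes, edgeR called 0 for INT-747 against NR in Tg26 mice, with 6 at an unadjusted p under 0.05, 3 called by DESeq2 and 0 by limma-voom, where 27.3% of all genes had such a p and DESeq2 called 13.8%. Their fitted levels were lower for 17, with a median of −0.36, and Gata3, a transcription factor of the collecting duct, came nearest at −0.84 (SE 0.22, edgeR adjusted p = 0.0529). The median was −0.22 without Tg26 replicate 3 under NR. For Tg26 against WT mice under NR the list also had 0 called by edgeR and 4 by DESeq2, 10 at an unadjusted p under 0.05, and a median of 0.36, where DESeq2 called 6.16% of all genes and 20.7% had such a p. Krt19, a keratin of simple epithelia, was at 4.29 there (SE 1.23, edgeR adjusted p = 0.137), St6gal1, a sialyltransferase, at 0.70 (edgeR adjusted p = 0.141) and Npnt, a matrix protein of the renal epithelium, at 0.63 (edgeR adjusted p = 0.134).

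Among 22 genes of vasopressin and cAMP signalling, 2 fell in Tg26 mice under INT-747 relative to NR and 0 rose, where 4.38% of all genes were called and 1.48% were called lower. Gata2, a transcription factor that takes part in Aqp2 expression, was at −0.91 (SE 0.16, edgeR adjusted p = 0.0286), and Pde4b, a phosphodiesterase that degrades cAMP, at −0.68 (SE 0.14, edgeR adjusted p = 0.0300). Neither was called without Tg26 replicate 3 under NR, at −0.74 (edgeR adjusted p = 0.0554) and −0.57 (edgeR adjusted p = 0.0693). Gata2 was also not called in the fit of only the 2 groups (edgeR adjusted p = 0.143), with a sex term (0.0590), or without Tg26 replicate 1 (0.102) or 3 (0.119) under INT-747, WT replicate 1 under INT-747 (0.0504) or Tg26 replicate 1 under NR (0.0548). For Pde4b the same settings gave edgeR adjusted p-values of 0.144, 0.0684, 0.115, 0.118, 0.0529 and 0.0876, and the sex term with the clock score gave 0.0534. The list median was −0.18. The anchoring protein gene Akap12 and the adenylyl cyclase gene Adcy3 were not called, and for Tg26 against WT mice under NR they stood at 1.91 (SE 0.50, edgeR adjusted p = 0.126) and 1.31 (SE 0.33, edgeR adjusted p = 0.125).

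Among 24 genes of aldosterone action and ENaC regulation, 1 fell in the same treatment comparison and 0 rose, beside the same 1.48% of all genes called lower. This was St14, which encodes matriptase, a membrane protease, at −0.57 (SE 0.14, edgeR adjusted p = 0.0473), close to the threshold. It was not called without Tg26 replicate 3 under NR (−0.52, edgeR adjusted p = 0.0974), in the fit of only the 2 groups (0.151), with a sex term (0.102) or with the sex term and clock score (0.0887). Leaving out other single libraries ended the call as well, with edgeR adjusted p-values of 0.144 and 0.183 for Tg26 replicates 1 and 3 under INT-747, 0.125 for Tg26 replicate 1 under NR, 0.0721, 0.0621 and 0.0598 for WT replicates 1, 2 and 3 under INT-747, and 0.0615 for WT replicate 2 or 3 under NR. The scaffold gene Cnksr3, an aldosterone target, was at −0.64 (SE 0.20, edgeR adjusted p = 0.0733), Tmprss4, another membrane protease, at −0.91 (edgeR adjusted p = 0.160) and Fkbp5, a glucocorticoid target, at −0.15 (edgeR adjusted p = 0.346). The list median was −0.10, and it was 0.01 without that library.

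Relatives of the members by family held no gene called by edgeR in Tg26 mice for INT-747 against NR, and 1 called by DESeq2. Over all genes edgeR called 4.38% and DESeq2 13.8% in this comparison, and 27.3% had an unadjusted p under 0.05 by edgeR. Of 7 other aquaporins 5 were tested, and edgeR, DESeq2 and limma-voom called 0, with 1 at an unadjusted p under 0.05. Aqp1, the water channel of the proximal tubule and thin limb, was at 0.11 (SE 0.11), Aqp7, a glycerol channel, at −0.07, Aqp6, of intercalated cells, at −0.30, and Aqp8, with at most 15 counts in a library, at −1.70 (edgeR adjusted p = 0.0907). Of 6 other FXYD genes 5 were tested, and edgeR and limma-voom called 0 and DESeq2 1, with 1 at an unadjusted p under 0.05. Fxyd6, the gene called by DESeq2, was at −2.68 (SE 0.95, edgeR adjusted p = 0.110), Fxyd2, the gamma subunit of the sodium pump, at 0.23, Fxyd5 at −0.44 and Fxyd1 at −0.48.

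The neighbouring intercalated cells gave values of a similar size over all libraries, but not without the library with the female pattern. All 12 of their markers had a lower fitted level under INT-747 than under NR in Tg26 mice, with a median of −0.50, and 1 fell, the transcription factor gene Foxi1 at −1.30 (SE 0.24, edgeR adjusted p = 0.0287), beside 1.48% of all genes called lower. Without Tg26 replicate 3 under NR the list median was −0.06, against −0.30 over the members, and Foxi1 was not called (−1.02, edgeR adjusted p = 0.0554). Its call was also lost in the fit of only the 2 groups (edgeR adjusted p = 0.136), with a sex term (0.0576), and without Tg26 replicate 1 (0.107) or 3 (0.129) under INT-747, WT replicate 1 under INT-747 (0.0504) or Tg26 replicate 1 under NR (0.0583). The summed markers lay between 273 and 340 CPM in Tg26 mice and 324 and 387 CPM in WT mice under INT-747, and between 323 and 618 CPM in Tg26 mice and 354 and 397 CPM in WT mice under NR. All 12 markers were detected. The part of cell composition in the values of the principal cell genes was not tested.

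Among the 11369 genes whose log2 CPM averaged 1 or more, those whose log2 CPM over the 12 libraries was most like the mean z-score of the members were Rhpn2 (Pearson r 0.97), Folh1 (0.96), Ptgs1 (0.96), Oat (0.96) and Igfbp7 (0.95). Without Tg26 replicate 3 under NR the values were 0.89, 0.87, 0.94, 0.88 and 0.84 over 11 libraries, the highest of these 5 being that of Ptgs1, a cyclooxygenase gene. The ranking over all genes was not repeated without that library. For single members the most alike genes were Dap for Aqp2 (0.91), Enpp2 for Aqp3 (0.95), Apoa4 for Aqp4 (0.95), Iqsec1 for Avpr2 (0.93), Top3b for Scnn1a (0.95), Mgst1 for Scnn1b (0.95), Ptgs1 for Scnn1g (0.97), Six4 for Fxyd4 (0.93) and Car2 for Hsd11b2 (0.96). Each member thus had a different closest gene. These are the extremes of a ranking over all genes and are given as a description, in libraries that share groups, depth and the library standing apart.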

How the data were processed

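Outer cortex mRNA of 12 mice was sequenced from stranded TruSeq libraries, per the labels. The submitters' processing notes name bcl2fastq 2.17, cutadapt 1.18, STAR 2.7.0f, RSEM 1.3.1 and build mm10, and the strand setting of the counting is not given in the sources used here. The deposited values are RSEM expected counts per gene, all whole numbers as deposited by the authors. Gene positions and merged exon lengths were taken from GENCODE release M21 on the same build, in which all 55450 gene IDs were found. Promoters and their start sites came from RefSeq.

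Total counts ran from 22286343 to 28952177 per library. Genes were filtered with filterByExpr and scaled by TMM, all 12 libraries entered one edgeR 4.0.16 quasi-likelihood fit with a mean per group (R 4.3.3, 8 residual degrees of freedom), and p-values were adjusted by Benjamini-Hochberg over all 15708 genes tested. CPM used TMM library sizes. The fit was tested on simulated data. The labels do not say how the mice of a group relate to each other, so p-values measure the spread between these samples. The members and lists were chosen with earlier results of these data known. All 9 members are named, and of each list the genes called in any of 7 comparisons and up to 4 of smallest p. Lists of other cell types served as checks and are given by their sums or medians, with the genes called by edgeR named. Alternatives were RLE factors, no filter or at least 1 CPM in 3 libraries, DESeq2 1.42.0, limma-voom (limma 3.58.1), no robust estimation, a fit of 2 groups alone, the replicate block, a sex term read from Xist, a clock score, and leaving out each library. The Aqp2 to Aqp3 ratio, the test of the clock score coefficient and the calls in lists under other settings were chosen after seeing the data.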

Additional observations from a re-analysis of the deposited data

How the results depend on the processing

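Each member had at least 55 counts in every library, and each group held 3 mice. The number of members called was 0 in every alternative for the interaction and for INT-747 against NR in WT mice. For Tg26 against WT mice under INT-747 it was 0, and 1 (Aqp3) in the fit of only the 2 groups, where 601 of 14827 genes were called. Under NR it was 0, 1 (Aqp2) with DESeq2, and 0 to 1 on leaving out 1 library. For INT-747 against NR in Tg26 mice it was 1 (Aqp2); it was 2 with RLE factors, without a filter and with 1 CPM in 3 libraries, 3 with DESeq2 and with the clock score, 0 in the fit of only the 2 groups, 0 with a sex term, 0 with the sex term and clock score, and 0 to 6 on leaving out 1 library. With a replicate block it was 0, with Aqp2 at −0.68 (edgeR adjusted p = 0.0697). Calls over all genes in this comparison ran from 0 of 15289 in the fit of only the 2 groups to 2320 of 16033 without Tg26 replicate 2 under NR. No label says that a replicate number pairs mice, and libraries of the same number correlated at −0.229 to 0.259 in their deviations from group means, so no pairing was used. Averaged over treatments the genotype comparison gave 0, 1 with DESeq2, 2 with a sex term and 0 to 2 on leaving out 1 library. Averaged over genotypes the treatment comparison gave 0, 1 with RLE factors, without a filter and with a sex term, 2 with the sex term and clock score, 3 with DESeq2 and with the clock score, and 0 to 3 on leaving out 1 library.

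Of 50 member values, 13 changed sign in at least 1 alternative, none of them called. From the averaged comparisons these 50 hold only Aqp2 and Aqp3 for genotype, and Aqp2, Aqp3 and Scnn1b for treatment. Signs of the other members were not counted there. Averaged over treatments, 5 of the 9 members were lower in Tg26 mice in the main fit, 8 with a sex term and 1 with the clock score. Averaged over genotypes, 8 were lower under INT-747 in the main fit and 6 with a sex term. For Tg26 against WT mice under INT-747 the clock score gave 0.22 for Avpr2, 0.029 for Scnn1a, 0.22 for Scnn1b, 0.21 for Scnn1g and 0.28 for Hsd11b2. With the sex term as well the values were 0.066, 0.055 and 0.15 for Scnn1b, Scnn1g and Hsd11b2, while Avpr2 and Scnn1a stayed negative. On leaving out 1 library Scnn1b ran from −0.13 to 0.0027 and Hsd11b2 from −0.21 to 0.066. Under NR the sex term gave −0.15 for Avpr2, −0.16 for Scnn1a, −0.12 for Scnn1g and −0.022 for Hsd11b2, the clock score 0.016 for Aqp3, and both terms −0.13 for Scnn1a. On leaving out 1 library Avpr2 ran from −0.13 to 0.65, Scnn1a from −0.14 to 0.43, Scnn1g from −0.10 to 0.43 and Hsd11b2 from −0.0016 to 0.43. For INT-747 against NR in WT mice Scnn1g was at 0.00093 with limma-voom and ran from −0.18 to 0.16 on leaving out 1 library, and Fxyd4 from −0.017 to 0.38. In Tg26 mice Aqp4 was at 0.012 with limma-voom, 0.89 with the sex term, 0.84 with both terms and −1.23 to 0.87 on leaving out 1 library. The cause of these changes was not tested.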
